A study of Mus musculus with 7 samples.

Results

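The 39 genes described here encode the machinery that copies DNA, divides the cell and controls entry into the cycle. They were chosen by symbol, and for each gene the brightest probe set over the 7 arrays was used, among those annotated to that gene alone. Of the 39 genes, 38 had such a probe set, out of 18193 genes on the array, and Ccnb1 had none. They were divided by role into 13 genes of DNA replication, 19 of mitosis and 7 cyclins and kinases of the step from G1 into S phase.

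The study measured transcripts in total RNA from left lungs of 8-week-old Gata5 KO mice (3 animals) and wild type mice (4 animals), with 1 Affymetrix whole-genome mouse array per animal. Gata5 encodes a zinc-finger transcription factor. The sources used here do not give the deleted exons, the strain or the sex of the mice. Whole left lungs were profiled, so each value averages over all lung cell types. All values are log2 levels as deposited, so a difference of 1 is a doubling, and a level compares arrays for 1 probe set, not probe sets with each other.

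Dividing cells pass through a fixed order of steps. Mitogens raise the D-type cyclins, which with Cdk4 release E2F transcription factors from the retinoblastoma proteins. E2F factors then turn on genes of DNA replication, and genes of mitosis follow later in the cycle, many of them through a promoter element called the cell cycle genes homology region, or CHR. Most cells of an adult lung are not dividing, and bulk tissue cannot tell fewer cells of a type from less RNA per cell.

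Array quality differed between the groups, and that touches every result below. The signal of the beta-actin 3′ probe set exceeded that of the 5′ one by a log2 difference of 4.96 ± 0.37 on KO arrays (SD, n = 3) and 4.10 ± 0.22 on WT arrays (SD, n = 4; exact two-sided permutation p = 0.0286, the smallest that 35 splits allow). The part of this in the changes was not tested by any experiment. Values with control probe set differences as covariates are given for the 6 cell cycle genes that passed, and not for the other calls below. With either of 2 beta-actin covariates 0 of all 13285 tested genes passed, and with a Gapdh covariate 5 did. In each of these covariates the KO arrays lay wholly above the WT arrays. The beta-actin 3′ minus 5′ difference, for example, was 4.74 to 5.39 in KO and 3.88 to 4.31 in WT. A fit with such a covariate cannot separate genotype from array quality, and calls lost there are given as values only. WT replicate 4 stood apart in Xist, the RNA of the inactive X chromosome, at 12.72 against 6.31 to 6.48 on the other 6 arrays. By this RNA the mice were of mixed sex, with the mouse that differed in the WT group. The part of sex in the changes was not tested. Gata5 itself lay under the level filter used below, at 4.98, 4.71 and 5.15 in KO lungs, against 5.32, 5.53, 5.85 and 5.47 in WT lungs. It was lower in every KO array (log2 change -0.60, limma adjusted p = 0.0326 in a fit without the filter), and whether its probe set lies in the deleted part is not known here.

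Few of the genes passed, and those that did went both ways. Of the 39 genes, 32 passed the filter on low levels and were tested with limma. Of these, 2 rose in KO lungs (Cdt1 and Mcm5), 4 fell (Ccnd3, Ube2c, Pcna and Ccnd1) and 26 did not pass at adjusted p under 0.05. The 6 that passed make 18.8% of the 32, close to the 15.6% of all 13285 tested genes. By direction the shares were 6.25% higher and 12.5% lower, against 5.56% and 10% of all tested genes. The median log2 change was -0.03 over the 32 genes and 0.00 over all tested genes. Groups did not overlap for 9 of the 32 (28.1%), against 29.6% of all tested genes. In 3 of them KO lay above WT and in 6 below, against 12.1% and 17.5% of all tested genes.

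**Figure D1:**
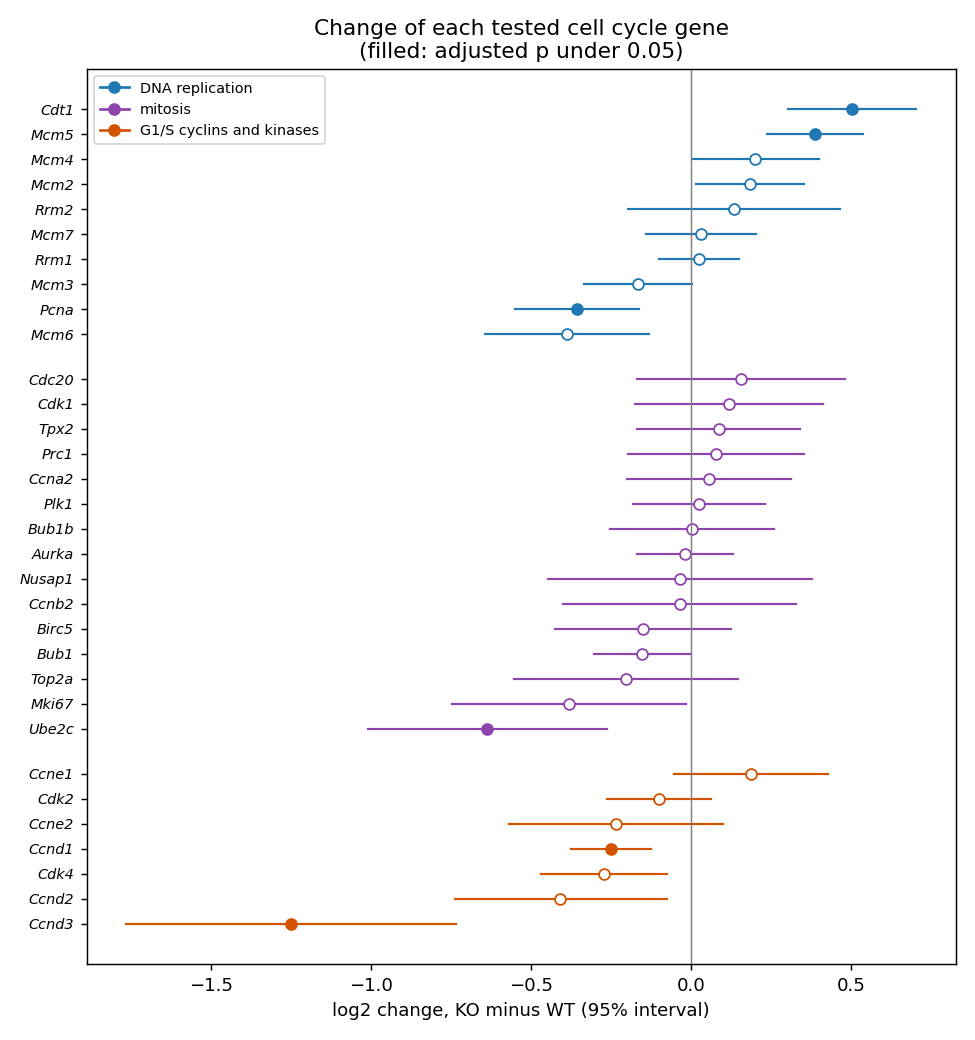
Log2 change (KO minus WT) with its 95% interval for each of the 32 tested genes, by role, filled where limma's adjusted p was under 0.05. Ccnd3 lies farthest to the left at -1.25, Cdt1 farthest to the right at 0.50, and 14 of the 15 mitosis genes have open points.

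The licensing of replication origins, the step that loads the Mcm2 to Mcm7 helicase onto DNA, included both genes that rose. Cdt1, the factor that brings the helicase to origins, had levels of 9.14, 9.28 and 8.96 in KO lungs, against 8.68, 8.58, 8.52 and 8.71 in WT lungs. All 3 KO arrays lay above all 4 WT arrays. KO lungs averaged 9.13 ± 0.16 (SD, n = 3), against 8.62 ± 0.09 (SD, n = 4) for WT lungs, which is 1.42-fold higher in KO (log2 change 0.50, limma adjusted p = 0.0106). Mcm5, a subunit of the helicase ring, had levels of 8.72, 8.82 and 8.86 in KO, against 8.39, 8.43, 8.33 and 8.50 in WT, again without overlap. It was 1.31-fold higher in KO (log2 change 0.39, 95% interval 0.24 to 0.54, limma adjusted p = 0.0100). Both calls held whichever array was left out, with adjusted p up to 0.0305 for Cdt1 and 0.0330 for Mcm5. With a control probe set difference as covariate neither passed, and the log2 change lay between 0.33 and 0.75 for Cdt1 and between 0.35 and 0.43 for Mcm5.

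Each of these increases was seen at 1 probe set of the gene and not at the others. The other probe sets of Cdt1 had log2 changes of -0.06 and 0.10, and those of Mcm5 0.00 and 0.04. They were dimmer, at mean levels of 5.50 and 3.77 for Cdt1 and 5.35 and 4.13 for Mcm5. Only the 5.50 probe set of Cdt1 lay above the level filter of 5.47. When all probe sets of each gene were averaged, the log2 change of Cdt1 was 0.18 and that of Mcm5 0.14, and neither passed.

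The promoters of both genes hold letters that E2F factors are known to bind, and they are shown for that reason. The windows run from 250 bases before to 50 bases after a start given in a RefSeq table (GRCm38.p6), 5′ to 3′ on the strand of the gene, at chr8:75109259-75109558, plus strand for Mcm5 and chr8:122567765-122568064, plus strand for Cdt1. Capitals mark E2F letters (TTTCCCGC, TTTCGCGC, TTTGCCGC or TTTGGCGC) and CHR letters (TTTGAA or TTTAAA), searched on both strands.
Mcm5: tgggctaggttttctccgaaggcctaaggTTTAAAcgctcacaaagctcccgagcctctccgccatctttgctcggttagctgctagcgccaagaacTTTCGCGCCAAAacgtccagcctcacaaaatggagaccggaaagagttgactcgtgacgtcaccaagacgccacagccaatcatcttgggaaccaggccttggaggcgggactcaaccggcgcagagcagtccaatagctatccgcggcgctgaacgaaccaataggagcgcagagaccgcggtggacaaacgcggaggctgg
Cdt1: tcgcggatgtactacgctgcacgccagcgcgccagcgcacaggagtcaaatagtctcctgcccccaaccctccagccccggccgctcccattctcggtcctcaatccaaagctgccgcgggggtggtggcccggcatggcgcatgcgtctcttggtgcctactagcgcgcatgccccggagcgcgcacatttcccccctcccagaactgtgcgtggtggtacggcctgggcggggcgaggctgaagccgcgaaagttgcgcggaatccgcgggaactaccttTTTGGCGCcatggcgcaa
Mcm5 has 2 E2F matches that overlap, the first beginning 153 bases before the start its window uses, and 1 CHR match. That start lies downstream of the first base of the Mcm5 gene in RefSeq, which is at 75109468. The E2F match of Cdt1 begins 33 bases after the start.

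The other helicase subunits had no common direction. Mcm6 had levels of 7.92, 8.13 and 7.81 in KO, against 8.26, 8.19, 8.32 and 8.59 in WT. The groups did not overlap, and the gene lay just outside the threshold (log2 change -0.39, 95% interval -0.64 to -0.13, limma adjusted p = 0.0501). It passed with median centring (0.0446), a filter at the 50th percentile (0.0481), a trended robust eBayes (0.0472) or without KO replicate 2 (0.0395). This probe set, 1416251_at, was the brightest of Mcm6 only through its WT level. On KO arrays 1438852_x_at was brighter, with a mean of 8.23 against 7.95. That probe set went the other way, with KO above WT and no overlap (log2 change 0.18, limma adjusted p = 0.146 over all probe sets). Mcm2 had levels of 9.31, 9.36 and 9.50 in KO and 9.10, 9.29, 9.27 and 9.16 in WT, also without overlap (log2 change 0.18, adjusted p = 0.121). Mcm4 (0.20), Mcm7 (0.03) and Mcm3 (-0.17) did not pass, and their groups overlapped. Adjusted p values in limma were 0.137 for Mcm4, 0.791 for Mcm7 and 0.152 for Mcm3.

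For 5 of the 6 helicase subunits both signs occurred among the probe sets of the gene. Mcm7 is the clearest case. Its probe set 1416030_a_at had levels of 5.69, 5.94 and 5.58 in KO lungs, against 6.40, 6.21, 6.27 and 6.62 in WT lungs. That is a log2 change of -0.64 without overlap (limma adjusted p = 0.0140 in the fit over all 34945 probe sets with 1 gene). A second one, 1416031_s_at, fell by 0.28 (adjusted p = 0.0237), while 1439269_x_at was at 0.21 and the brightest, 1438320_s_at, at 0.03, neither of which passed. The call at 1416030_a_at was lost without KO replicate 3 (adjusted p = 0.0508), and that at 1416031_s_at without any of 5 arrays (up to 0.0639). Mcm2 had 0.18 and -0.32 at its 2 probe sets, Mcm4 0.20 and -0.12, Mcm6 -0.39, 0.18 and 0.21, and Mcm3 between -0.46 and 0.19 at 5, none of which passed.

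Probe sets whose name ends in _x_at, a suffix that Affymetrix gives where probes can match other transcripts, were shifted up in KO over the whole array. Of 1480 such probe sets above the level filter, 11.6% rose and 3.72% fell, with a median log2 change of 0.10. Of 16584 with the plain _at ending, 4.47% rose and 11.6% fell, with a median of -0.02. The Mcm5 probe set that rose ends in _x_at, as do the brightest ones of Mcm3, Mcm4, Rrm2, Cdc20, Ccne1 and Cdk4, whereas that of Cdt1 ends in _a_at. Whether cross-matching moved the Mcm5 value was not tested.

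**Figure D2:**
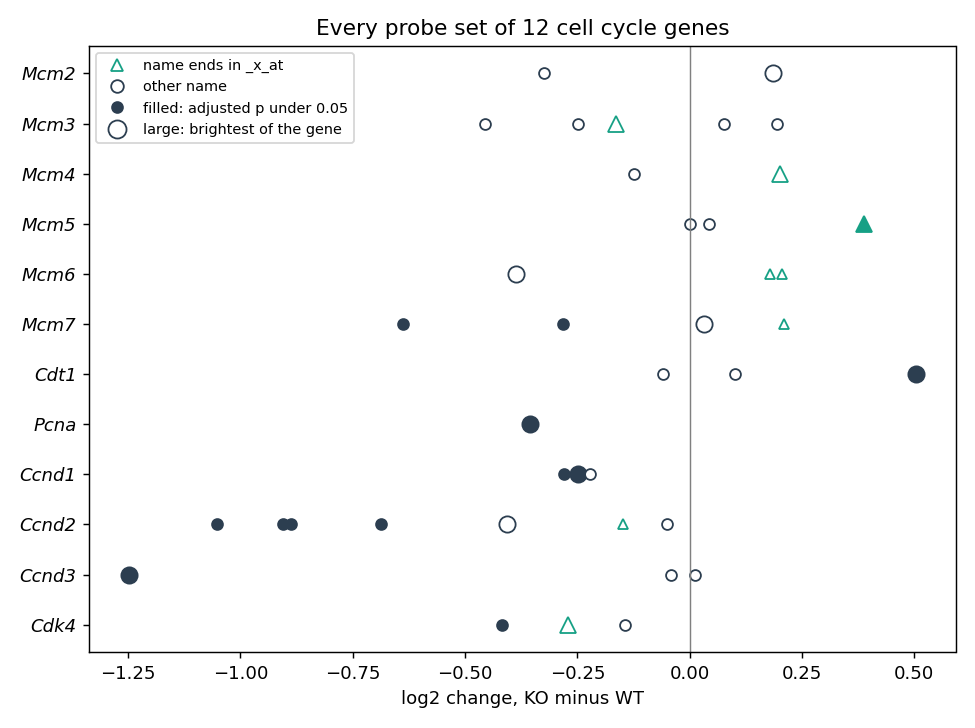
Log2 change (KO minus WT) at every probe set of 12 genes, triangles for names ending in _x_at, filled where adjusted p over all probe sets was under 0.05, and large for the brightest of a gene. Mcm7 spans -0.64 to 0.21, and 4 of the 7 Ccnd2 probe sets lie at -0.69 or below, left of its brightest one at -0.41.

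Among genes that act at the fork or supply nucleotides, Pcna fell. It encodes the sliding clamp that holds DNA polymerase on its template and has 1 probe set. Levels were 10.11, 10.31 and 10.14 in KO lungs, against 10.39, 10.52, 10.58 and 10.68 in WT lungs. All KO arrays were below all WT arrays, 1.28-fold lower in KO (log2 change -0.36, 95% interval -0.55 to -0.16, limma adjusted p = 0.0282). The call was lost without KO replicate 1 or 3 or WT replicate 2, 3 or 4, with adjusted p up to 0.0813. With the control covariates it did not pass, at log2 changes between -0.59 and -0.17.

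Rrm1 and Rrm2, the subunits of ribonucleotide reductase, which makes deoxyribonucleotides, did not pass. Rrm1 had a log2 change of 0.03 with a 95% interval of -0.10 to 0.15 (limma adjusted p = 0.755). Rrm2 had one of 0.13, with a wider interval of -0.20 to 0.47 (adjusted p = 0.520). Cdc6, the partner of Cdt1 in loading the helicase, Gins1, a part of the active helicase, and Tyms, thymidylate synthase, lay under the level filter and were not tested. Their levels ranged from 4.18 to 5.26 (Cdc6), 4.97 to 5.46 (Gins1) and 4.0 to 4.06 (Tyms) on KO arrays, against 4.72 to 4.80, 4.87 to 4.97 and 4.0 to 4.03 on WT arrays.

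Of 13 replication genes, 10 were tested, with 2 higher, 1 lower and 7 not passing, and a median log2 change of 0.08. That is 30% passing, a share set by 3 genes, against 15.6% of all tested genes. The window of Pcna, on chr2:132253131-132253430, minus strand, holds none of the E2F or CHR letters, and is shown beside the 2 above as the replication gene that fell.
Pcna: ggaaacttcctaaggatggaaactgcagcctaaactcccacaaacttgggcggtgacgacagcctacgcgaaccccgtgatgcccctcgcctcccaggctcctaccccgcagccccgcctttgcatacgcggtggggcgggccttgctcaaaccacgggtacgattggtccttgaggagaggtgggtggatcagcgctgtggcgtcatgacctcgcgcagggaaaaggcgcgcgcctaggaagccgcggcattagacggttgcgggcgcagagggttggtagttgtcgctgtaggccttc
Over the 11 replication genes with a window, 5 held E2F letters (45.5%), against 2.34% of 27025 genes with a window. Besides Mcm5 and Cdt1 these were Mcm6 (3 matches, log2 change -0.39), Mcm3 (2 matches, -0.17) and Cdc6, which was not tested. The letters thus occurred in genes with changes of either sign, though Mcm6 and Mcm3 did not pass. Whether they bear on direction was not tested.

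Of the 15 tested genes of mitosis 1 passed (6.67%, against 15.6% of all tested genes), and it lay near the level filter. Ube2c, the ubiquitin-conjugating enzyme that works with the anaphase-promoting complex, had levels of 5.17, 5.05 and 5.36 in KO lungs, against 5.77, 6.29, 5.57 and 5.69 in WT lungs. The groups did not overlap, and the mean was 1.56-fold lower in KO (log2 change -0.64, 95% interval -1.01 to -0.26, limma adjusted p = 0.0356). The KO arrays lay below the level filter of 5.47 and the WT arrays above it, so the gene was tested only because of its WT level and its count as a lower gene supports nothing by itself. In the fit without a filter the adjusted p was 0.0429. The call was lost without any 1 of the 3 KO arrays or without WT replicate 1 or 4 (adjusted p up to 0.0896), with array weights (0.0535) and with each control covariate, where the log2 change lay between -0.98 and -0.17. The other 14 tested mitosis genes did not pass, and the median log2 change of all 15 was -0.02.

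The promoter of Ube2c, on chr2:164769679-164769978, plus strand, carries a CHR match that begins 29 bases before the start, marked in capitals.
Ube2c: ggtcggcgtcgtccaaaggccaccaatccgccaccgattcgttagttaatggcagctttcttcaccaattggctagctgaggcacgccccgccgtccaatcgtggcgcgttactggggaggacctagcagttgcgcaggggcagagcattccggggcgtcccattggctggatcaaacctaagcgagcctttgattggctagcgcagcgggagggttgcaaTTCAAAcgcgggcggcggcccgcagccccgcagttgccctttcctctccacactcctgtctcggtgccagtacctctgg
CHR letters were found in 13 of the 15 mitosis genes with a window (86.7%), 3 of 11 replication genes (27.3%) and 27.9% of all genes with a window. E2F letters were in 1 of the 15 mitosis windows. CCAAT, the letters of the NF-Y factor, was in 13 of 15 mitosis and 8 of 11 replication windows, against 37.8% of all. A match is a description of the letters alone.

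Mki67, whose protein coats mitotic chromosomes and is the usual marker of proliferation, had levels of 7.52, 8.10 and 7.92 in KO, against 8.49, 8.27, 7.93 and 8.22 in WT. The ranges overlapped (log2 change -0.38, 95% interval -0.75 to -0.01, limma adjusted p = 0.133). Top2a, the topoisomerase that untangles chromosomes, had levels of 7.25, 7.73 and 7.64 in KO, against 7.91, 7.91, 7.40 and 7.75 in WT (log2 change -0.20, adjusted p = 0.364). Another Top2a probe set, far dimmer at a mean level of 4.18, was higher in KO (log2 change 0.23, limma adjusted p = 0.0455 over all probe sets), and that call was lost without any 1 of 6 arrays (up to 0.118).

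Among the kinases and cyclins that drive mitosis, Cdk1 (log2 change 0.12), its partners Ccna2 (0.06) and Ccnb2 (-0.03), the polo kinase Plk1 (0.03) and the Aurora kinase Aurka (-0.02) lay near 0. The 95% intervals ran from -0.18 up to 0.23 for Plk1 and from -0.17 up to 0.13 for Aurka, and were wider for Ccnb2 (-0.40 to 0.33). Aurkb lay under the filter, at 4.48 to 4.65 on KO arrays and 4.42 to 4.76 on WT arrays. Genes of the spindle checkpoint and of chromosome segregation did not pass either. Bub1 had a log2 change of -0.15 (limma adjusted p = 0.143), Bub1b 0.00, Birc5, also called survivin, -0.15 and Cdc20, the activator of the anaphase-promoting complex, 0.16. Of the spindle proteins, Tpx2 (0.09), Prc1 (0.08) and Nusap1 (-0.03) did not pass, and the motors Kif11 and Kif20a lay under the filter, with means of 5.03 and 3.91 over the 7 arrays.

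Levels of mitosis genes varied between mice of the same group. The mean over the 15 tested genes was 6.34, 6.54 and 6.53 on KO arrays, against 6.58, 6.67, 6.33 and 6.59 on WT arrays. The ranges of the 2 genotypes overlapped. WT replicate 3 was the lowest WT array in 12 of the 15 genes (80%), against 24.2% of all tested genes. KO replicate 1 was the lowest KO array in 9 of 15 (60%), against 32.9%. Only these 2 arrays were counted, and each had the lowest mean of its group over the same 15 genes. High shares were therefore likely beforehand and add no separate evidence. For the 10 replication genes the means were 8.86, 8.99 and 8.93 on KO arrays, against 8.85, 8.87, 8.84 and 8.93 on WT arrays, which also overlapped.

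**Figure D3:**
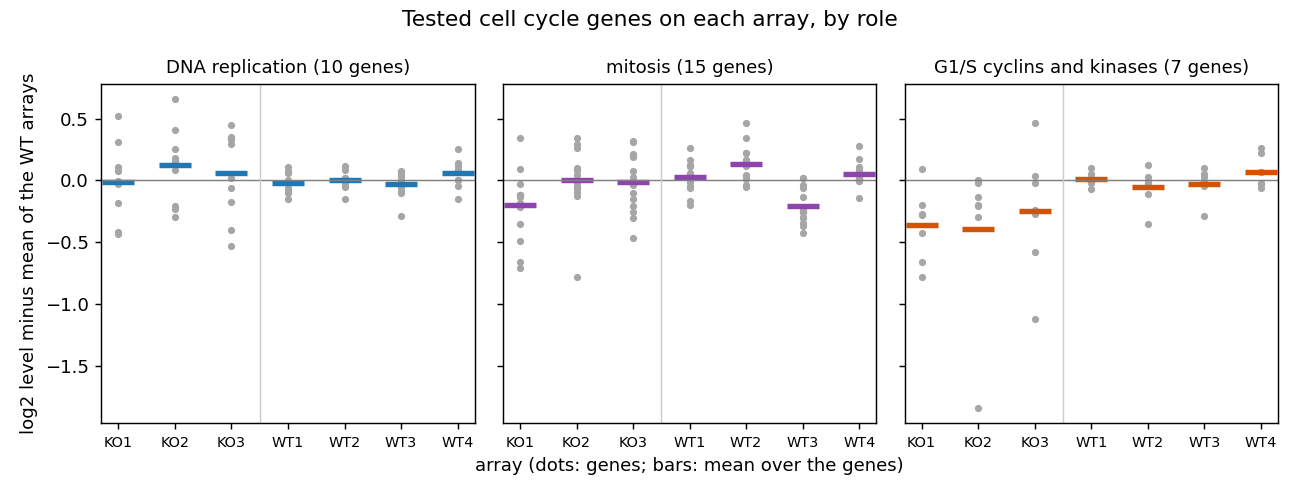
Log2 level minus the mean of the WT arrays, for each tested gene (grey dots) and averaged by role (bars), on each array. Mitosis genes averaged -0.20 on KO replicate 1 and -0.21 on WT replicate 3. The 7 G1/S cyclins and kinases averaged between -0.39 and -0.25 on KO arrays and between -0.05 and 0.07 on WT arrays. Their average leans on Ccnd3, whose log2 change was -1.25, while the other genes of the role lay between -0.41 and 0.19.

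The G1/S cyclins and kinases were the role with the lowest median, at a log2 change of -0.25, with 2 of 7 lower, 0 higher and 5 not passing, where 10% of all tested genes were lower. With so few genes this share says little. Ccnd3, a D-type cyclin prominent in lymphocytes, had the largest change of all 32 genes at the probe sets used. Its levels were 8.46, 7.40 and 8.12 in KO lungs, against 9.34, 9.37, 8.95 and 9.31 in WT lungs. No KO array reached the lowest WT array, and the KO arrays spread more (7.99 ± 0.54, SD, n = 3) than the WT arrays (9.24 ± 0.20, SD, n = 4). The mean was 2.38-fold lower in KO (95% interval of the log2 change -1.76 to -0.73, limma adjusted p = 0.0118), and the call held whichever array was left out (adjusted p up to 0.0364, log2 change -1.48 to -0.95).

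The other probe sets of Ccnd3 did not move with it. They had mean levels of 8.61 and 7.14, well above the filter, and log2 changes of 0.01 and -0.04. The probe set used, 1415907_at, was the brightest over the 7 arrays only through its WT level. On KO arrays 1438805_at was brighter, with a mean of 8.62 against 7.99. On WT arrays the order was the reverse, 8.605 against 9.24. The choice thus rested on the group in which 1415907_at was high, so its change is to be read beside the others. Entering a control probe set difference as covariate ended the call at 1415907_at, the brightest. Its log2 change was -0.32 with beta-actin 3′ over 5′ (limma adjusted p = 0.583), -0.33 with Gapdh 3′ over middle (0.351) and -1.38 with beta-actin 3′ over middle (0.303). Averaging the 3 probe sets gave -0.43, which did not pass (0.0576).

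Ccnd1, the D-type cyclin induced by many growth factor pathways, fell by a small amount. Values were 10.66, 10.73 and 10.66 in KO, against 10.92, 10.93, 10.98 and 10.90 in WT, with no overlap. It was 1.19-fold lower in KO (log2 change -0.25, 95% interval -0.37 to -0.12, limma adjusted p = 0.0227). A second probe set fell by 0.28 (adjusted p = 0.0418 over all probe sets), and the remaining one was at -0.22 and did not pass. The call was lost without KO replicate 1 or 3 or WT replicate 1, 3 or 4 (adjusted p up to 0.0601). It was also lost under a further quantile normalization, under cyclic loess and with each control covariate (log2 change between -0.33 and -0.23).

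Ccnd2, the D-type cyclin of many blood and stromal cells, did not pass at its brightest probe set but fell at 4 of its 7. The brightest, 1434745_at, had levels of 10.68, 10.90 and 10.53 in KO, against 11.10, 10.76, 11.21 and 11.37 in WT, with an overlap (log2 change -0.41, limma adjusted p = 0.0901). Probe set 1448229_s_at had levels of 8.99, 8.72 and 8.51 in KO, against 9.83, 9.42, 9.58 and 9.75 in WT, with none. The log2 change there was -0.91 (adjusted p = 0.00711 over all probe sets).

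Of the others, 1430127_a_at was at -0.89 (adjusted p = 0.00810), 1416122_at at -0.69 (0.0146) and the dim 1416123_at at -1.05 (0.00414), while 1455956_x_at (-0.15) and 1416124_at (-0.05) did not pass. Calls at 3 of the 4 held whichever array was left out, and that at 1416122_at was lost without KO replicate 3 (adjusted p = 0.0552). With the mean of all its probe sets Ccnd2 passed (log2 change -0.59).

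Cdk4, the kinase that the D-type cyclins activate, had levels of 8.18, 8.16 and 8.22 in KO, against 8.39, 8.35, 8.41 and 8.68 in WT. The groups did not overlap, and limma's test missed the threshold (log2 change -0.27, 95% interval -0.47 to -0.08, limma adjusted p = 0.0645). At a dimmer probe set, 1422440_at, it fell by 0.42 (adjusted p = 0.0488 over all probe sets), a call lost without any 1 of 6 arrays (up to 0.117). The E cyclins and their kinase, which act later in the same step, did not pass: Ccne1 was at 0.19 (limma adjusted p = 0.232), Ccne2 at -0.23 (0.281) and Cdk2 at -0.10 (0.340).

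**Figure D4:**
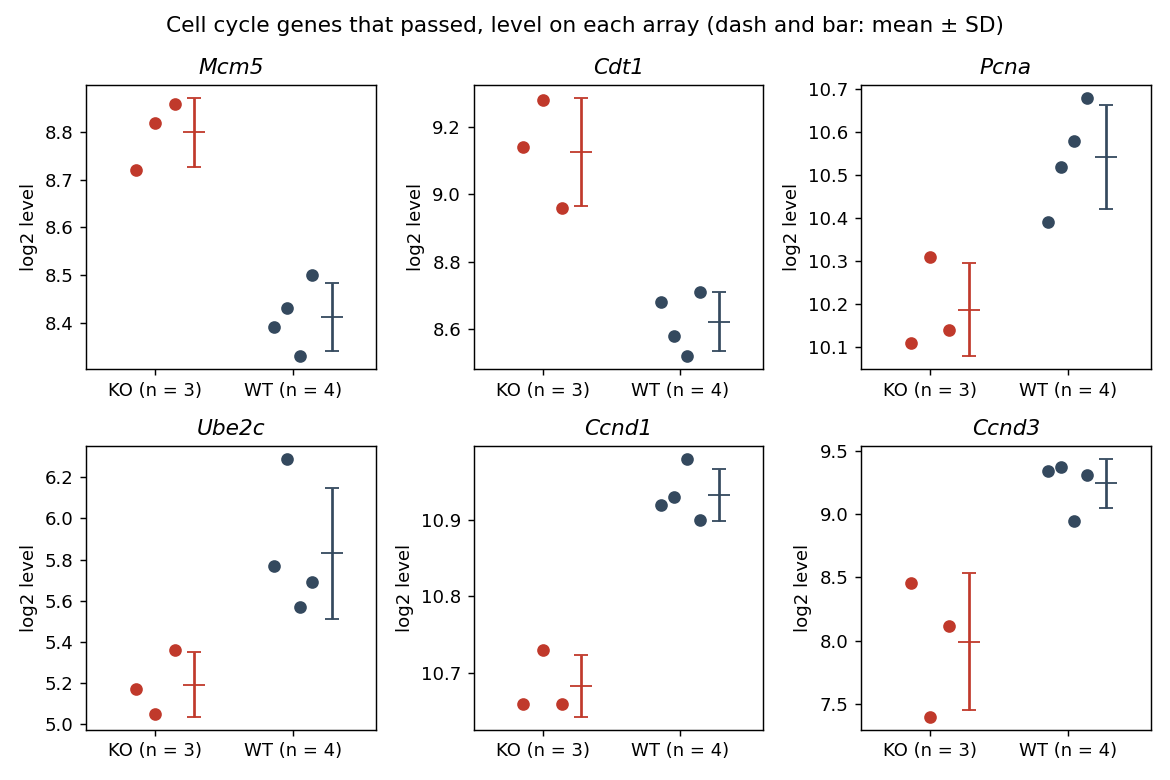
Log2 level of the 6 genes that passed, on each of 3 KO and 4 WT arrays, with the mean and SD beside the points. The vertical axes differ between genes and do not start at 0. In each gene the KO points lie wholly above (Mcm5, Cdt1) or wholly below (Pcna, Ube2c, Ccnd1, Ccnd3) the WT points.

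Over every probe set of these genes, 15 of 92 passed (16.3%), against 11.8% of 34945 probe sets with 1 gene. Of these, 3 were higher and 12 lower in KO. Probe sets of 1 gene are not independent, and the 12 lower ones came from 7 genes. Ccnd2 gave 4 of them, and Mcm7 and Ccnd1 gave 2 each. Lower ones made 7.85% and higher ones 3.98% of all 34945. Of the 16 genes with more than 1 probe set above the filter, 7 had both signs among them (43.8%), against 55.3% of 5604 such genes on the array.

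Further genes of the same processes were taken from lists made for each role. Of 39 tested replication genes beside those above, 6 rose, 2 fell and 31 did not pass, with a median log2 change of 0.04. That is 20.5% passing, against 15.6% of all tested genes. By direction, 5.56% of all tested genes were higher and 10% lower. The genes that rose were the maintenance methyltransferase Dnmt1 (log2 change 0.37), the polymerase subunit Pole (0.41), the flap nuclease Fen1 (0.34), the primase Prim1 (0.30), the fork protein Tipin (0.34) and Rpa1, which coats single-stranded DNA (0.21). The origin subunit Orc4 (-0.32) and the helicase subunit Gins4 (-0.34) fell. Dnmt1, Pole and Fen1 passed whichever array was left out. Pole had levels of 5.73, 5.88 and 5.68 in KO lungs, against 5.39, 5.39, 5.41 and 5.23 in WT lungs, so it passed the level filter of 5.47 only through its KO arrays. Rpa1 lost its call without any 1 of the 7 (adjusted p up to 0.104 in limma). Of the 7 fits with 1 array left out, Orc4 and Prim1 each passed in 4, and Tipin and Gins4 each in 1.

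Probe sets of these genes differed as well. The other Rpa1 probe set fell by 0.30 (limma adjusted p = 0.0380 over all probe sets), that of Prim1 was at -0.22 and did not pass, and the Fen1 and Dnmt1 probe sets used end in _x_at. A second _x_at probe set of Dnmt1 was at 0.37 (adjusted p = 0.00731) and the _a_at one at 0.12, which did not pass.

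Of 34 tested mitosis genes from such a list, 1 rose and 2 fell, with 31 not passing and a median of 0.01. That is 8.82% passing, against 15.6% of all tested genes (5.56% higher and 10% lower). Ncaph, a condensin subunit, rose at an _x_at probe set (0.36), and its other probe set was at 0.01. Anapc11, the RING subunit of the anaphase-promoting complex with which Ube2c works, had levels of 8.33, 8.14 and 8.24 in KO, against 8.80, 9.03, 8.74 and 9.02 in WT. It fell by 0.66 on the log2 scale (limma adjusted p = 0.00740) and passed whichever array was left out. Its other probe sets were at 0.12 and 0.08. The phosphatase Cdc25b, an activator of Cdk1, fell by 0.35 (limma adjusted p = 0.0228). Its call was lost without KO replicate 1 or 3 or WT replicate 1 or 4 (adjusted p up to 0.0678). That of Ncaph was lost without KO replicate 2 or 3 or WT replicate 1, 3 or 4 (up to 0.0822).

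Of 33 tested genes of G1/S control, 0 rose, 5 fell and 28 did not pass, with a median of -0.05. In either direction 15.2% passed, nearly the 15.6% of all tested genes. All of the 15.2% were lower, where 10% of all tested genes were lower and 5.56% higher. The genes that fell were the Cdk inhibitor Cdkn1c (log2 change -0.41), the antiproliferative Btg2 (-0.31), the atypical cyclin Ccng2 (-0.27), the repressor E2f6 (-0.34) and Fbxw7, which marks cyclin E for destruction (-0.35). Each of these calls was lost without at least 2 arrays, with adjusted p in limma up to 0.133 for Cdkn1c and 0.0542 for Btg2. A second Btg2 probe set fell by 0.73 (adjusted p = 0.00467 over all probe sets).

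Markers of the cells that could hold these transcripts were read beside the results. None of the 3 tested T cell, 3 B cell, 3 alveolar macrophage, 2 neutrophil, 3 erythroid, 3 type 2 or 4 type 1 genes passed in limma, and 1 of them had an unadjusted p under 0.05. The mean level of the T cell genes was 6.70 to 7.28 on KO arrays and 6.85 to 7.30 on WT arrays, and that of the B cell genes 7.0 to 8.39 on KO arrays and 6.68 to 7.87 on WT arrays. The alveolar macrophage genes averaged 8.86 to 9.21 on KO arrays and 9.18 to 9.55 on WT arrays, with log2 changes of -0.48 for Siglecf, -0.39 for Marco and -0.21 for Chil3, none of which passed. The endothelial genes averaged 9.84 to 10.14 on KO arrays and 10.30 to 10.66 on WT arrays, without overlap. Of the 4, Pecam1, an adhesion molecule of endothelial junctions, fell (log2 change -1.22, limma adjusted p = 0.00679). Cdh5, Kdr and Tek were at -0.15, -0.27 and -0.21, did not pass, and each had groups that overlapped. KO replicate 1 was above WT replicate 2 in Cdh5 (10.62 against 10.60) and Kdr (11.06 against 10.86) and below it in Tek (11.21 against 11.29). The gap between the endothelial averages therefore rests on Pecam1. The part of any of these cells in the lower D-type cyclins was not tested.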

How the data were processed

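The authors deposited log2 levels of 45101 probe sets on 7 arrays. Per the submitters' processing notes the tools included Affymetrix Expression Console, RMA and MAS5. Which of them made the table is unstated, and the log base was taken from the range of the values. Array medians lay between 6.10 and 6.15. Groups and replicate numbers came from the labels, which call the samples biological replicates. Probe sets were named from the platform annotation, with symbols updated through RefSeq genes of GRCm38.p6. 1 gene was given for 34945 of 45037 probe sets that are not controls.

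Each of 18193 genes was represented by its brightest probe set. Genes with a mean of at least 5.47, the 40th percentile over probe sets, were tested (13285, with 4908 under it). The test was limma's (lmFit, then eBayes, version 3.58.1 in R 4.3.3) on genotype alone, with Benjamini-Hochberg adjustment over all genes tested. Values of genes under the filter came from the same fit without it, and values of single probe sets from a fit on all probe sets with 1 gene. Intervals are at 95%, and the number of arrays limits precision. Members, lists and their roles were chosen with earlier results of these data known. Named genes were all members, the genes of each further list that passed (at most 6 in each direction), markers that passed and Gata5. The other endothelial and the alveolar macrophage markers and Xist were named after their values were seen. Probe sets of these genes are named too.

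Promoter windows came from RefSeq (GRCm38.p6), for 30 of the 39 genes. Where a gene had several, the window with the lowest coordinate was used. The windows of Mcm7, Cdc6 and Aurka lay wholly downstream of the first base of the gene in RefSeq. The motif shares therefore describe the windows used, which need not be the main promoter of each gene. Aurkb, Ccna2, Ccnd1, Ccnd2, Ccne2, Gins1, Kif20a, Mcm4 and Tpx2 were not matched. Alternatives covered the normalization, filter, probe set, variance model, control covariates, replicate block and arrays left out. Same-numbered KO and WT arrays did not deviate together (correlations of 0.00, -0.04 and 0.04), so the numbers were not taken as pairs. No pseudocount applied to log2 values. Figures were drawn with matplotlib 3.10.9.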

Additional observations from a re-analysis of the deposited data

Results flagged for a closer look

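In 6 of the 32 tested genes, 1 of the 4 WT arrays stood far from the other 3 for their range (Dixon's test at 95%), where chance marks about 1 in 20 groups. Rrm2 was at 8.12 on WT replicate 3, with the other WT arrays at 8.47 to 8.52, and Ccnd3 at 8.95 on the same array, with the others at 9.31 to 9.37. Ccne1 was at 6.35 on WT replicate 4, with the others at 6.43 to 6.44, and Cdk2 at 7.88 on that array, with the others at 7.79. Ccne2 was at 6.23 on WT replicate 1, with the others at 6.16 to 6.17. Rrm1 was at 7.79 on WT replicate 2, with the others at 7.80, which is a single step of the 2 decimals to which values were deposited. KO arrays are not in this list, and single ones stood apart there too. Ccne2 was at 5.52 on KO replicate 1, with the other KO arrays at 6.16. With single arrays left out its log2 change ranged from -0.34 to -0.02. Ccnd1 was at 10.73 and Bub1 at 6.13 on KO replicate 2, with the other KO arrays at 10.66 and 5.97.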

How the results depend on the processing

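The counts over all tested genes, 739 higher and 1331 lower in KO, and the 6 of 32 cell cycle genes that passed, depended on the samples and on the control covariates. Leaving out each array in turn gave 287 to 627 higher, 604 to 1325 lower and 3 to 6 cell cycle genes, with Ccnd3, Cdt1 and Mcm5 among them each time. The lowest counts came without WT replicate 4. Counts of cell cycle genes were 3 without KO replicate 1, KO replicate 3 or WT replicate 4, and 4 without WT replicate 1 or WT replicate 3. Over all genes, counts moved by over 1.5 times without KO replicate 3 (418 higher, 686 lower), WT replicate 1 (322 and 695), WT replicate 3 (354 and 750) or WT replicate 4 (287 and 604). In limma, 0 genes rose and 0 fell with either beta-actin covariate, 0 rose and 5 fell with the Gapdh covariate, and 0 rose and 0 fell in the 5 mice with the lowest mouse numbers in the labels (all 3 KO, and WT replicates 1 and 2). The count of cell cycle genes was 0 in each of these 4 fits. At unadjusted p under 0.05 there were 2204, 1742, 2726 and 2792 genes, and 5, 4, 7 and 10 cell cycle genes, in that order. With the replicate number as a block the counts were 98 higher, 273 lower and 2 cell cycle genes (Ccnd3 and Cdt1). Of all genes that passed, 35.7% were higher, against 56.9% after quantile normalization (1191 higher, 902 lower), 46.7% after cyclic loess and 25.5% after median centring. The mean of all probe sets passed 4 cell cycle genes (Ccnd1, Ccnd2, Pcna and Ube2c). The brightest probe set not named _x_at or _s_at, an alternative chosen after seeing the data, passed 7 (Ccnd1, Ccnd3, Cdt1, Mcm6, Mcm7, Pcna and Ube2c). The cause of these differences was not tested. Because each control covariate separated the KO from the WT arrays, the fits with one cannot tell genotype from array quality.

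None of the 6 genes that passed turned sign under an alternative that gave it a value. Mcm5 had none without _x_at and _s_at probe sets, and Ube2c none with the filter at the 50th percentile. Among genes that did not pass, signs turned as follows (log2 change). With quantile normalization the sign turned for Bub1b at -0.029. With median centring the sign turned for Rrm1 at -0.003, Plk1 at -0.003 and Bub1b at -0.026. With cyclic loess the sign turned for Plk1 at -0.023 and Bub1b at -0.051. With the mean of all probe sets the sign turned for Mcm2 at -0.07, Mcm7 at -0.17, Top2a at 0.006 and Prc1 at -0.035. With array weights the sign turned for Bub1b at -0.009. With the beta-actin 3′ minus 5′ covariate the sign turned for Mcm3 at 0.03, Mcm7 at -0.096, Rrm1 at -0.054 and Aurka at 0.033. With the beta-actin 3′ minus middle covariate the sign turned for Mcm4 at -0.119, Rrm2 at -0.202, Ccna2 at -0.233, Ccnb2 at 0.173, Cdc20 at -0.082, Plk1 at -0.256, Nusap1 at 0.031, Prc1 at -0.268, Ccnd2 at 0.015 and Ccne1 at -0.229. With the Gapdh covariate the sign turned for Mcm7 at -0.116, Rrm1 at -0.044, Aurka at 0.006 and Bub1b at -0.205. In the 5 mice with the lowest mouse numbers the sign turned for Ccna2 at -0.057, Cdk1 at -0.02, Plk1 at -0.037 and Prc1 at -0.013. At the brightest probe set not named _x_at or _s_at the sign turned for Mcm2 at -0.324, Mcm4 at -0.124 and Mcm7 at -0.638. When single arrays were left out the sign turned for 11 genes, whose log2 changes ranged as follows: Mcm7 -0.032 to 0.078, Rrm1 -0.002 to 0.053, Ccna2 -0.023 to 0.15, Ccnb2 -0.222 to 0.078, Cdk1 -0.003 to 0.193, Plk1 -0.062 to 0.088, Aurka -0.065 to 0.03, Bub1b -0.063 to 0.097, Tpx2 -0.04 to 0.16, Nusap1 -0.182 to 0.08 and Prc1 -0.037 to 0.177. The probe set of Ube2c lay near the filter of 5.47, where dim signal limits what can be measured.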

Other observations

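Disagreement between probe sets of a gene was general on these arrays. Of 5604 genes with more than 1 probe set above the level filter, 3100 had both signs, and in 105 of them 1 probe set rose and another fell. Among 1007 genes that passed and had more than 1 such probe set, 500 had both signs (49.7%). Direction also went with the name of the probe set: the share that rose was 11.6% for the _x_at ending, 5.99% for _s_at, 4.47% for _at and 3.95% for _a_at. The share that fell was 3.72%, 12.6%, 11.6% and 16.2% in the same order.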
